A study of Drosophila simulans with 12 samples.

Results

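Glutamate transport and glutamine synthesis were followed through 5 genes, Eaat1, Eaat2, gb, Gs1 and Gs2, in males of Drosophila simulans that carried a sterile or a fertile introgression, with testis and abdomen measured apart. The genes were found by their symbol in the platform annotation of each array design, and 4 of the 5 had a probe set of their own, 1 per gene in each tissue, among 18769 probe sets in testis and 13966 in abdomen. Eaat1 was not found under its symbol in either annotation and was not analysed here. A second abdomen probe set that the annotation gives to gb also carries another gene's symbol and was left out. The set was put together with its sterile against fertile values known, Eaat2 above all, so the values of the 4 measured genes are given as a description and carry no p-value.

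The sterile and the fertile males both had a D. simulans background and both carried a stretch of the X chromosome from D. mauritiana around OdsH, a homeobox gene known for its part in hybrid male sterility. Sterile males carried the S variant of the OdsH locus and fertile males the F variant. By the series' design text, these variants differ by about 3 kb that hold exons 3 to 4 of OdsH. All males were 3 to 4 days old. Each RNA sample was a pool, of 150 males on average for dissected testes and 50 for abdomens, and each line and tissue had 3 extractions, labelled A, B and C, on 1 array each. That gave 12 arrays in 4 groups of 3. Each state was represented by a single line, and nothing in the labels places the 3 extractions in separate cultures, so the spread given here may be technical.

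Glutamate is the excitatory transmitter of the insect neuromuscular junction and a main entry point of nitrogen into amino acid metabolism. Eaat1 and Eaat2 encode sodium-driven transporters of the plasma membrane that carry acidic amino acids into the cell. Both are best known from glia, and in D. melanogaster Eaat2 takes up aspartate better than glutamate. The gene gb, genderblind, encodes a subunit of an exchanger that releases glutamate in return for cystine, and its D. melanogaster mutants are known for altered male courtship. Gs1 and Gs2 encode the mitochondrial and the cytoplasmic glutamine synthetase, which join ammonia to glutamate.

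The testis samples carried high signals of germline genes in both lines. Of 17 germline markers on the testis design, 13 were called present on all arrays of both lines, and the summed intensity of the list was 68918 to 70255 in sterile and 69741 to 70307 in fertile testis. The median intensity of an array ranged from 212.2 to 221.9 for testis, where all 3 sterile medians lay below all 3 fertile ones, and from 208.4 to 222.6 for abdomen. Arrays of 1 group scattered around their mean with a typical SD of 0.049 (log2) for testis against 0.30 for abdomen, so abdomen values are far less precise. The sperm gene Mst84Da was bright in abdomen too, at 24268 in sterile and 24818 in fertile males. In such whole-organ RNA, fewer cells of a type and less RNA per cell cannot be told apart.

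Eaat2 was measured in fertile testis and was called absent on all 3 sterile testis arrays. The fertile intensities were 944.8, 946.7 and 885.5 on arrays A, B and C, a mean of 926 ± 34.8 (SD, n = 3). The sterile intensities were -13.5, -20.3 and -28.9, a mean of -20.9 ± 7.72. The groups lay far apart, and every sterile value was below 0. The authors' deposited table calls Eaat2 present on 100% of fertile and on 0% of sterile arrays.

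The size of this difference cannot be given as a plain ratio, because the sterile values are negative. Each sterile value was therefore replaced by the lowest intensity of any probe set called present on all 3 sterile arrays, which was 8.85 to 18.4 depending on the array. Against that level Eaat2 was 32.6-fold lower in sterile testis on the log2(intensity + 16) scale, and 12.8-fold to 68.2-fold lower with 64 or 1 added in place of 16. That level is no detection limit, and a higher one would give a smaller fold. Probe sets called absent on all 3 sterile arrays had mean sterile intensities with a 95th percentile of 590.8. The authors' deposited table lists a fold score of 926.7 for Eaat2, which equals its fertile mean in that table and so is no measured ratio. The same table puts its mark of selected probe sets on none of the 4 genes.

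Values below 0 were rare on these arrays. Of the 18769 testis probe sets, 6635 were called absent on all 3 sterile arrays, with a median intensity of 100.3, but only 12 were below 0 on all 3. Of those 12, 4 were called present on all 3 fertile arrays, and Eaat2 is 1 of these 4. The fertile line had a like number of such probe sets, with 13 below 0 on all 3 arrays, of which 4 were called present on all 3 sterile arrays. Probe sets absent on all sterile and present on all fertile arrays numbered 127, Eaat2 among them. The opposite pattern was found in 89. Eaat2 passed the detection filter only through the fertile line, as did 881 of the 9927 probe sets tested.

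**Figure D1:**
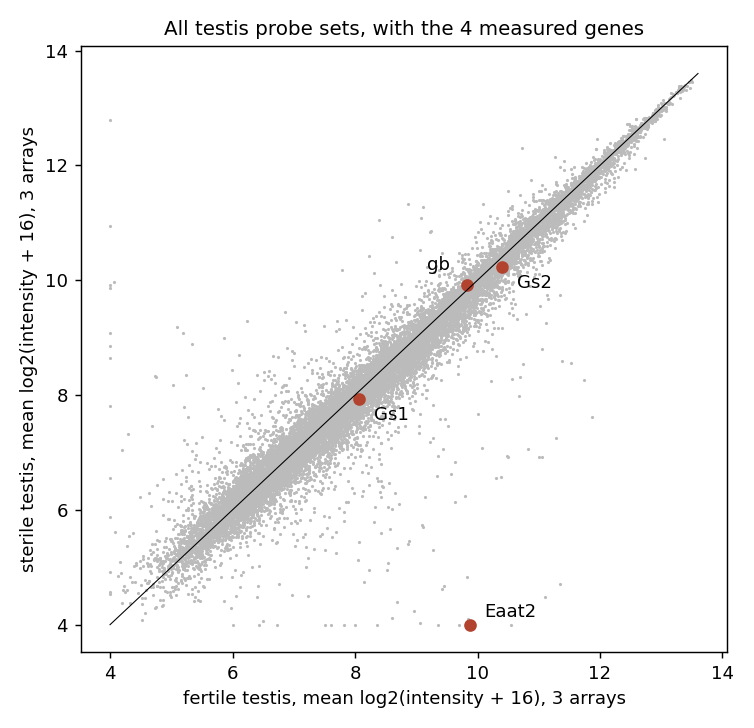
Mean log2(intensity + 16) of all 18769 testis probe sets in sterile (vertical axis) against fertile males (horizontal axis), 3 arrays each, with the line of equal values and the 4 measured genes in red. Eaat2 lies at the lower edge of the plot, where intensities below 0 were set to 0, while gb, Gs1 and Gs2 lie close to the line.

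In abdomen Eaat2 passed the filter, which there rests on mean intensity, since present calls were not used for that tissue. The intensities were 368.9, 241.1 and 569.7 in sterile and 521.9, 414.3 and 673.5 in fertile abdomens, with means of 393 ± 166 and 537 ± 130 (SD, n = 3). The groups overlapped, although the sterile array was the lower one for each of the 3 replicate letters. The log2 difference, sterile minus fertile, was -0.49 ± 0.33 (SE), with a 95% interval from -1.23 to 0.25. With the replicate letter as a block the SE was 0.22 and the interval ran from -1.01 to 0.03. The 2 tissues were measured on different array designs with different probes, so the testis and abdomen values of Eaat2 stand side by side and were not compared by a test.

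The exchanger subunit gene gb differed little between the lines in testis. Its intensities were 934.9, 991.6 and 935.8 in sterile and 901, 907.2 and 876.9 in fertile testis. The 3 sterile values all lay above the 3 fertile ones, by 6.60% in the means (954 ± 32.5 against 895 ± 16, SD, n = 3). The log2 difference was 0.09 ± 0.03 (SE). It was 0.14 after centring each array on its median and 0.17 after quantile normalization. In abdomen the order of the means was the reverse on the probe set of gb alone, at 184 ± 45.5 in sterile and 334 ± 134 in fertile males. The single values there were 136.2, 226.9 and 187.7 against 181.2, 389.9 and 431.8, and they overlapped, although the sterile array was the lower one for each of the 3 letters. The abdomen log2 difference of gb was -0.75 ± 0.40, with a 95% interval from -1.66 to 0.16. With the letter as a block the SE was 0.34 and the interval ran from -1.55 to 0.05. The abdomen probe set left out, which carries gb and another symbol, went the other way. It measured 262 ± 145 in sterile and 122 ± 85.1 in fertile males. Its values overlapped, it did not pass the filter, and its signal may come from either gene.

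Gs2, for the cytoplasmic glutamine synthetase, was slightly lower in sterile testis. The sterile intensities of 1186, 1225 and 1155 all lay below the fertile ones of 1339, 1343 and 1329, and the mean was 11.1% lower (1189 ± 35.5 against 1337 ± 7.55, SD, n = 3). The log2 difference was -0.17 ± 0.03 (SE), and it shrank to -0.12 with median centring and to -0.11 after quantile normalization. In abdomen the Gs2 intensities were 6110, 4836 and 4829 in sterile and 5714, 4989 and 4763 in fertile males. These values overlapped almost fully, with a log2 difference of 0.02 ± 0.14 and a 95% interval from -0.30 to 0.35. With the replicate letter as a block the SE was 0.10 and the interval ran from -0.20 to 0.25. Array A was the highest of its group in both lines.

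Gs1, for the mitochondrial glutamine synthetase, overlapped between the lines in both tissues. In testis its intensities were 249.8, 206.7 and 233.8 in sterile and 251.2, 263.7 and 242.2 in fertile males. The log2 difference there was -0.13 ± 0.07 (SE), with a 95% interval from -0.27 to 0.02. In abdomen they were 144.3, 139.5 and 253.1 in sterile and 236.8, 267.7 and 249 in fertile males. Sterile arrays A and B lay below every fertile array, and sterile array C lay among them. The abdomen log2 difference was -0.50 ± 0.36, with a 95% interval from -1.32 to 0.32. With the replicate letter as a block the SE was 0.39 and the interval ran from -1.40 to 0.39. The testis probe set of Gs1 is of the kind whose probes can match more than 1 transcript, so its signal may not come from Gs1 alone.

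**Figure D2:**
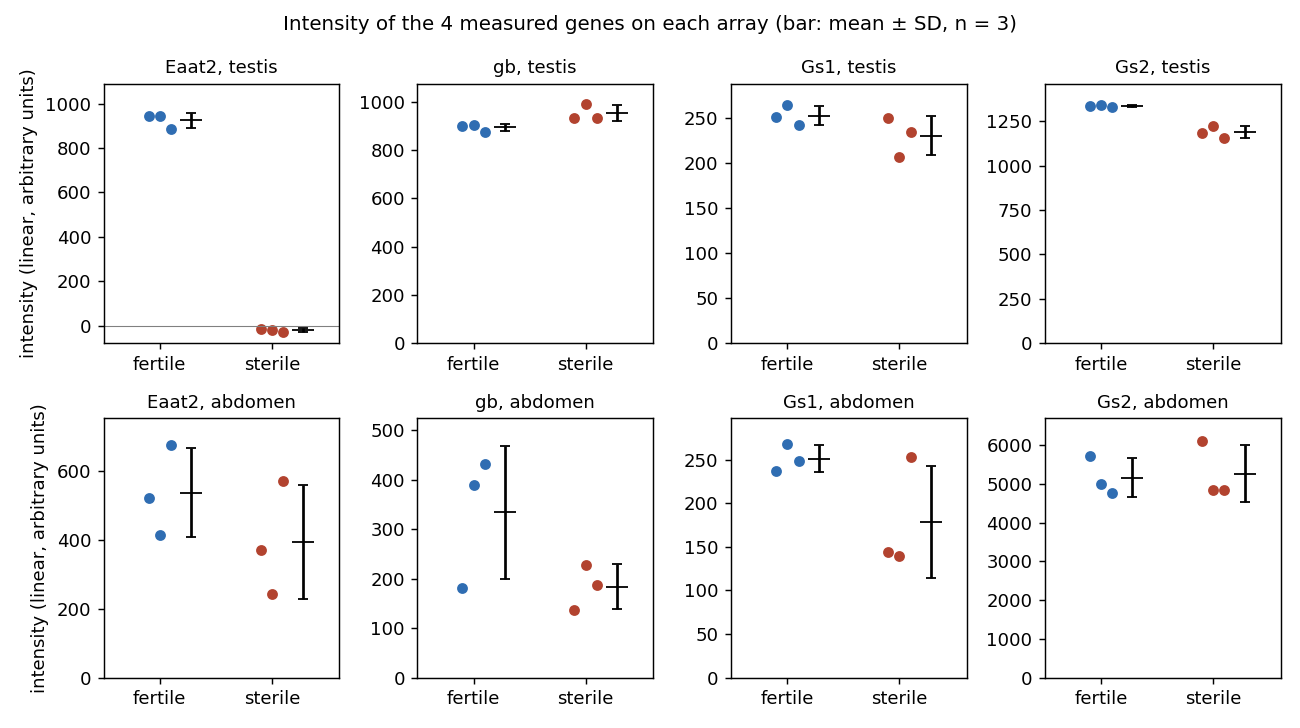
Intensity on a linear scale (vertical axes) of Eaat2, gb, Gs1 and Gs2 on each array of fertile and sterile males, in testis (upper row) and abdomen (lower row), with the mean ± SD of the 3 arrays beside the points. Eaat2 in testis is the only panel in which a line sits at 0 or below, and in abdomen the sterile and fertile points of all 4 genes overlap.

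In testis 3 of the 4 genes, Eaat2, gb and Gs2, had sterile values that did not overlap the fertile ones. The sterile values were the higher ones for gb and the lower ones for Eaat2 and Gs2. Of all probe sets tested in testis 64.3% did not overlap, 24.3% with the sterile values higher and 40% with them lower. In abdomen none of the 4 separated the lines, where 14.1% of probe sets did not overlap (7.09% higher and 7.02% lower in the sterile line). Since the genes were chosen with this contrast known, nothing is read from these counts.

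Other genes of the pathway were taken from 3 lists, of enzymes that make or use glutamate and glutamine, of other amino acid transporters, and of glutamate receptor and synapse genes. The lists hold 79 genes without the 5 above, of which 72 were on the testis design and 69 on the abdomen design. In testis 49 were tested, and 11 were higher and 17 lower in the sterile line by limma's test at an adjusted p under 0.05. That is 57.1% called, beside 60.4% of all probe sets tested, of which 22.6% were higher and 37.8% lower. The median log2 fold change was -0.02, against -0.04 over all probe sets tested. The balance of directions followed the scaling of the arrays, with 14 higher and 9 lower after median centring and 14 higher and 8 lower after quantile normalization. Over all probe sets the share of calls that were higher moved from 37.4% to 50% and 50.6% under the same alternatives.

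Among the enzymes, 6 of 26 tested were higher and 8 lower in sterile testis (8 and 4 after median centring, 9 and 4 after quantile normalization), 53.8% called beside 60.4% of all probe sets. P5cr, for the reductase that makes the last step of proline synthesis from glutamate, rose from 339 ± 10.4 to 642 ± 21 (SD, n = 3; limma adjusted p = 2.80e-11). The sterile intensities of P5cr were 619 to 659 and the fertile ones 328 to 349. GluRS-m, the mitochondrial glutamyl-tRNA synthetase gene, rose from 116 ± 2.75 to 197 ± 3.6 (limma adjusted p = 1.93e-07). Ssadh, for the dehydrogenase that ends the GABA shunt by which glutamate carbon re-enters the citric acid cycle, fell from 863 ± 6.5 to 595 ± 26.5 (limma adjusted p = 4.09e-09). These 3 genes and the transporter genes CG7255 and CG8785 were the pathway genes called in testis with a log2 change of at least 0.5. Each of the 5 kept an adjusted p under 0.05 under all 13 alternatives tried. The log2 change of Ssadh was smaller than 0.5 under some of them, down to -0.45.

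The other 11 enzyme genes that passed, 4 higher and 7 lower, had log2 fold changes from -0.37 to 0.23. Gdh, bb8, Got1 and Got2 are given here for their role and were chosen after their values were seen. Gdh, for the glutamate dehydrogenase of general metabolism, fell from 3108 ± 53.4 to 2406 ± 42.6 in sterile testis, a log2 fold change of -0.37 ± 0.02 (SE; limma adjusted p = 6.44e-10). It fell under both scaling alternatives too (-0.32 and -0.33). Its testis paralog bb8, known from spermatid mitochondria in D. melanogaster, did not pass, at 4444 ± 184 in sterile and 4557 ± 3.51 in fertile testis (limma adjusted p = 0.211). The cytosolic aspartate transaminase gene Got1 fell by 0.14 ± 0.02 on the log2 scale. The mitochondrial one, Got2, had a log2 fold change of -0.08 ± 0.02. It passed on the deposited scale (limma adjusted p = 0.0092) but under neither scaling alternative.

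Among the other amino acid transporters, 5 of 19 tested were higher and 9 lower in sterile testis (6 and 5 after median centring, 5 and 4 after quantile normalization), 73.7% called beside 60.4% of all probe sets. CG7255, of the cationic amino acid transporter family, rose from 669 ± 11.7 to 1406 ± 38.8 (limma adjusted p = 6.31e-14). CG8785, of the proton-coupled amino acid transporter family, fell from 316 ± 5.31 to 167 ± 7.36 (limma adjusted p = 1.77e-09). Both rest on probe sets of the kind that can match more than 1 transcript, as that of Gs1 does. The other 12 transporter genes that passed, 4 higher and 8 lower, had log2 fold changes from -0.35 for mnd to 0.28 for sbm. VGlut, which loads glutamate into synaptic vesicles and was also chosen after its values were seen, measured 473 ± 27.5 in sterile and 519 ± 35.2 in fertile testis. It was called absent on all sterile arrays and present on all fertile ones. VGlut passed as lower on the deposited scale (limma adjusted p = 0.0431) but under neither scaling alternative. Of 18 receptor and synapse genes on the design, 8 were called absent on all 6 testis arrays, 4 were tested and none passed.

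**Figure D3:**
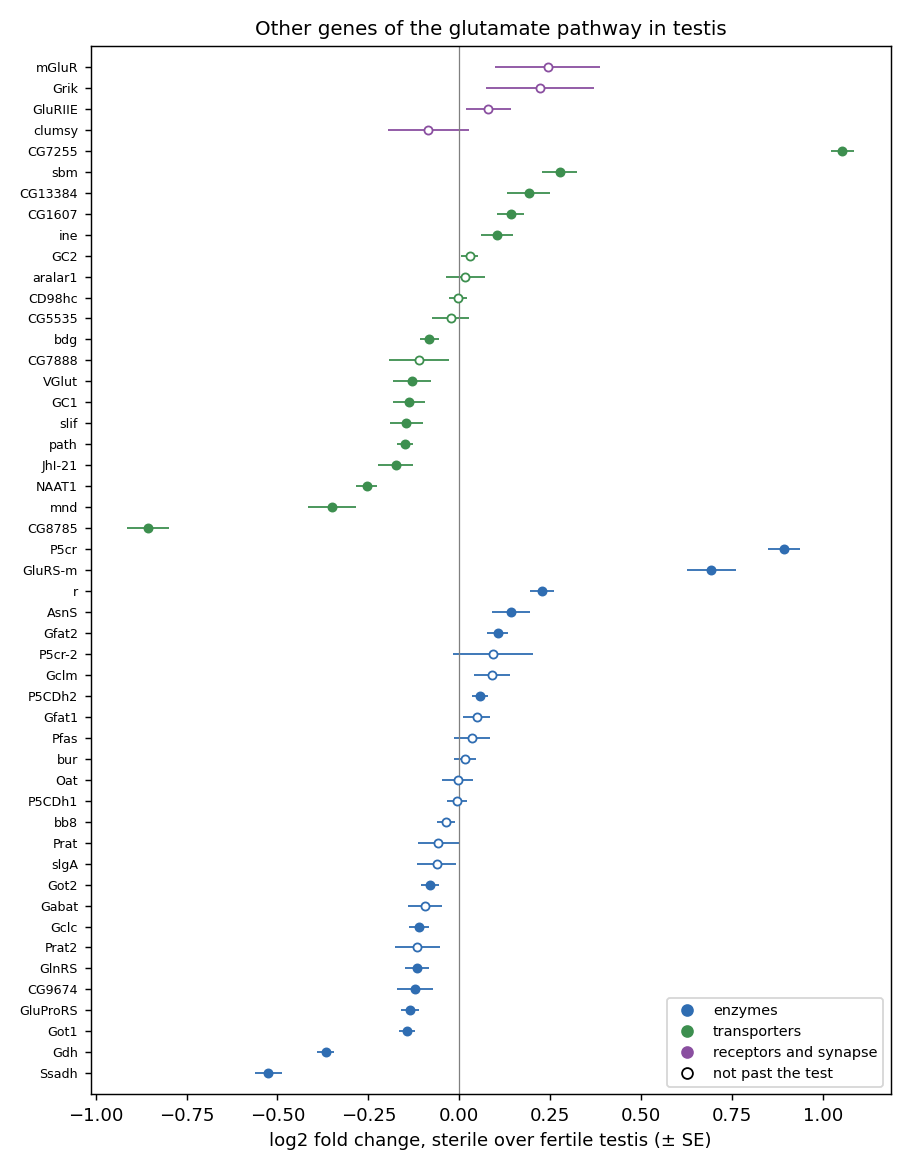
Log2 fold change of sterile over fertile testis (horizontal axis, ± SE, 3 arrays a line) for the 49 tested genes of the 3 pathway lists, filled where limma's adjusted p was under 0.05. Most lie within 0.5 of 0, CG7255, P5cr and GluRS-m lie above it, and CG8785 and Ssadh lie below it.

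In abdomen 1 of 44 pathway genes tested was called, 2.27%, beside 0.544% of all probe sets, and the median log2 fold change was -0.03 against 0.01. The gene was Gdh, which rose in the sterile line from 3064 ± 267 to 5296 ± 207 (SD, n = 3; limma adjusted p = 0.0311). The sterile intensities of Gdh were 5204, 5151 and 5533, and the fertile ones were 3345, 3031 and 2815, so the groups did not overlap. The log2 fold change was 0.79 ± 0.13 (SE). The calls over all abdomen probe sets were 0.258% higher and 0.286% lower, and 8.12% had an unadjusted limma p under 0.05. The call was lost after median centring, without the variance trend and without any single array, with adjusted p from 0.02 to 0.245 over all 13 alternatives. The replicate letter was taken in abdomen to mark arrays that deviated together. With it as a block, 65 probe sets passed over the whole table in place of 38, and Gdh passed (limma adjusted p = 0.0252).

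Markers of other tissues differed between the testis samples in which Eaat2 differed. Of 33 midgut digestive enzyme genes on the testis design, 16 were tested, and all 16 were lower in the sterile line by limma's adjusted p. That is 100% called, beside 60.4% of all probe sets tested, of which 37.8% were lower. The tested ones include 11 that passed the detection filter only through the fertile line, so the filter itself favoured a lower call for them. The other 5 were called present on all arrays of both lines. Over all 33 the median log2 fold change was -0.92. The summed intensity of the 33 was 3930 to 4157 on sterile and 21957 to 22144 on fertile arrays, and Mal-A1, a maltase gene, was below 0 on all 3 sterile arrays (mean -12.2 against 240.3). In abdomen 4 of 37 tested midgut genes were higher and 1 lower in the sterile line. That is 13.5% called, beside 0.544% of all abdomen probe sets tested (0.258% higher and 0.286% lower). The summed intensity of the midgut genes overlapped between the lines in abdomen.

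Glial markers, the cell class best known for Eaat2 and gb, counted 5 lower and none higher of 8 tested in testis, under the deposited scale and under both scaling alternatives. That is 62.5% called, close to the 60.4% of all probe sets. Their summed intensity was 4648 to 4810 on sterile and 5474 to 5729 on fertile arrays. The glial transcription factor gene repo was near the low end, at 67.2 in sterile and 76.8 in fertile testis, and did not pass (limma adjusted p = 0.213). Of the lower ones, Gli, nrv2 and Nrx-IV encode septate junction proteins that epithelia also use. Neuron markers counted 1 lower of 3 tested, with 4 of 10 called absent on all 6 arrays, and none passed after quantile normalization. Their summed intensity was 2272 to 2415 in sterile and 2420 to 2518 in fertile testis.

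The counts of the remaining lists stand beside the same background of 60.4% called, 22.6% higher and 37.8% lower. Malpighian tubule markers counted 2 higher and 3 lower of 5 tested in testis, with summed intensities of 2896 to 2936 in sterile and 3414 to 3491 in fertile samples. Fat body markers counted 1 higher and 3 lower of 4, with summed intensities over all 7 on the design of 6566 to 6657 in sterile and 7924 to 8145 in fertile samples. The median log2 fold change was -0.27 over the 4 tested and 0.16 over all 7. Muscle markers counted 2 higher and 5 lower of 13, but 4 and 4 after median centring and 4 and 3 after quantile normalization. Accessory gland markers counted 4 higher and 7 lower of 17, with 6 and 5 after median centring and 4 and 6 after quantile normalization. Their summed intensity was higher in sterile samples, at 97622 to 99099 against 92708 to 93152. The higher sum rests on Acp53C14b, at a mean log2(intensity + 16) of 12.8 in sterile and at the floor of 4 in fertile testis. The sterile signal of Acp53C14b was larger than the gap between the sums of the lines. The median log2 fold change of the tested ones was -0.06. In abdomen the summed intensity of the list was lower in sterile samples, at 49305 to 52360 against 62065 to 75095. The part of these other tissues in the Eaat2 difference was not tested.

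**Figure D4:**
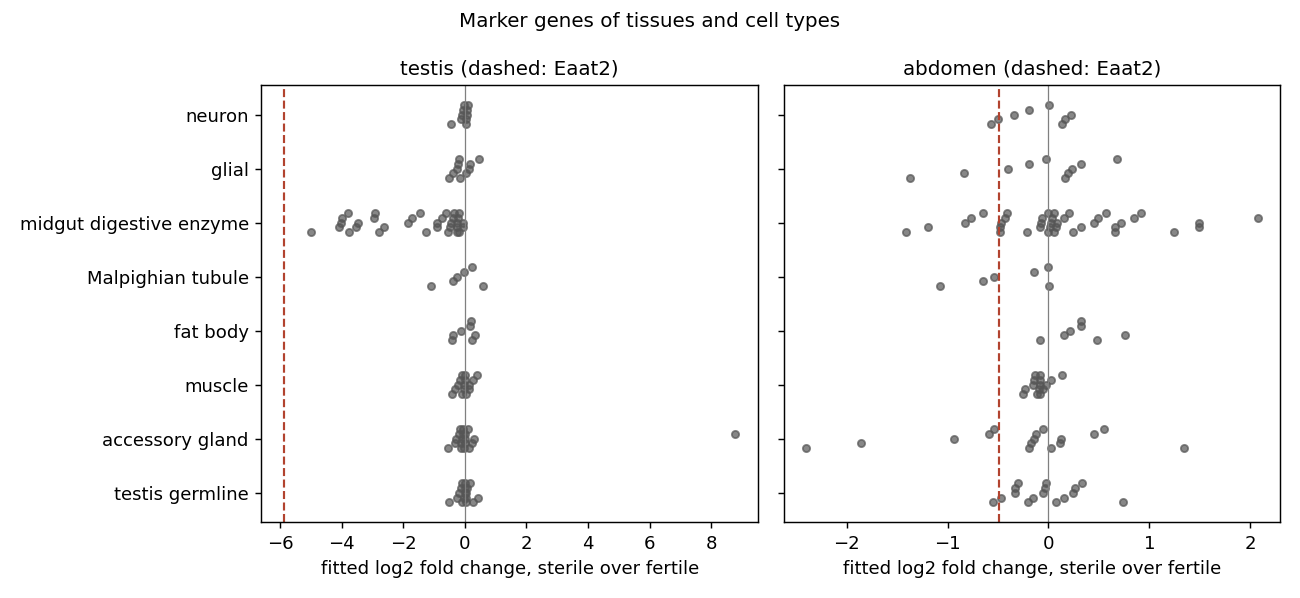
Fitted log2 fold change of sterile over fertile (horizontal axes, scales differ) for each marker gene on the array, tested or not, in testis (left) and abdomen (right), with the fitted value of Eaat2 as a dashed line. In testis only the midgut list spreads far below 0, with no marker as low as Eaat2, and fitted values of genes near 0 in 1 line depend on the constant added before the log.

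The genes whose values lay nearest to those of Eaat2 were sought among 10756 genes with a probe set on both designs, by the root mean square difference of log2(intensity + 16) over the 12 arrays. This measure sees the level as well as the pattern. The nearest was CG17197, a gene of the DHHC palmitoyltransferase family, at a difference of 0.87. CG17197 measured -22.7 in sterile and 818.4 in fertile testis, and 106.1 and 459.1 in abdomen, so that it was below 0 in the same testis samples but also low in sterile abdomens. The next were Glt, for the basement membrane protein glutactin, at 1.13, and CG5107 at 1.15. Glt measured 35 in sterile and 364 in fertile testis, and CG5107 measured 54.7 and 779.7. In sterile and fertile abdomen Glt measured 401.7 and 358.9 and CG5107 618.9 and 675.8, beside 393 and 537 for Eaat2. For the other 3 genes the nearest values were much closer. AcCoAS, ND-B14.7 and ACC, for an acetyl-CoA synthetase, a subunit of respiratory complex I and acetyl-CoA carboxylase, lay at 0.15, 0.17 and 0.18 from Gs2. CG9922, LS2 and CSN8 lay at 0.21, 0.24 and 0.25 from gb. Dus2 and mthl5 lay at 0.22 and 0.23 from Gs1, and 1 gene not named here was nearer, at 0.21.

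**Figure D5:**
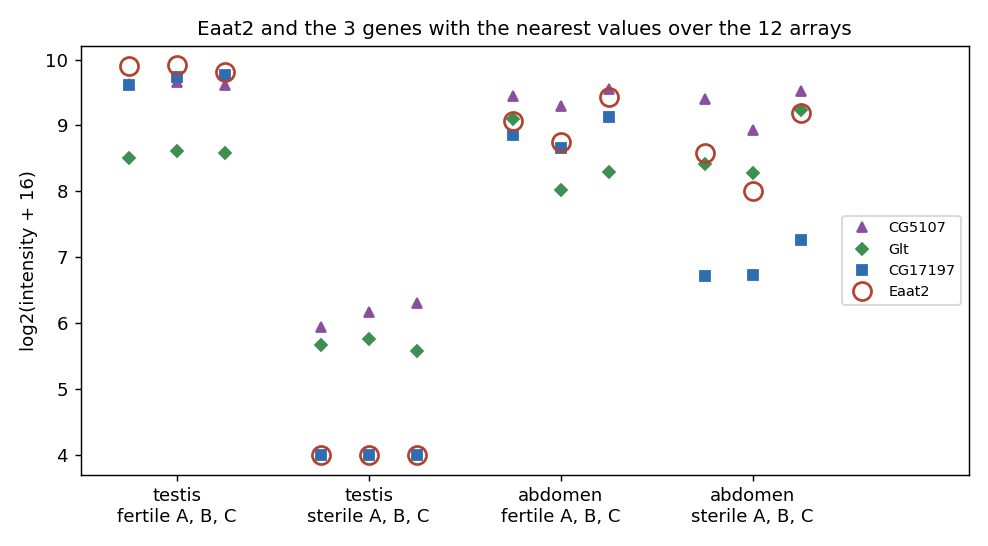
Log2(intensity + 16) (vertical axis) of Eaat2 and of the 3 genes with the nearest values on each of the 12 arrays, by tissue and line. Eaat2 and CG17197 coincide at the floor of 4 in sterile testis, where intensities below 0 were set to 0, and in sterile abdomen CG17197 lies below the other 3 genes.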

How the data were processed

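Signals were read from the deposited value tables of 2 Affymetrix designs made for D. melanogaster genes, testis on one and abdomen on the other. The values are intensities on a linear scale, which the authors made with MAS5 per the submitters' processing notes. On each testis array 26 to 37 probe sets had an intensity below 0, and MAS5 gives no negative signal, so how they were made is not given in the sources used here. From the authors' deposited table of the testis comparison came the percent of present calls per line, the mean intensity of the fertile arrays, a signed fold score and the mark of selected probe sets. Its 12 per-array columns were left aside, since their headings fit the titles of samples in either tissue.

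Intensities below 0 were set to 0 and log2(intensity + 16) was taken. Testis probe sets were tested if present on 100% of the arrays of a line, and abdomen probe sets from the median of the mean log2 value upwards, after 44 control probe sets were left out. Each tissue was fitted with limma 3.58.1 in R 4.3.3 (lmFit, eBayes with a trend), with Benjamini-Hochberg adjustment over all probe sets tested and a call at an adjusted p under 0.05. The steps were checked on simulated data. Where a list gene had several probe sets, the brightest on average stood for it. Probes were not corrected for sequence differences between species. None of the 5 symbols matched the D. simulans gene table, so no chromosome or sequence is given.

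The 5 genes and all lists were chosen with earlier results of these data known. Named were the 5 genes, pathway genes called with a log2 change of at least 0.5, at most 12 a tissue, and the 3 nearest genes of each measured gene, except the nearest of Gs1. Genes named outside this rule are marked in the text as chosen after their values were seen, apart from markers and the extremes of a range. Deviations from the group means of arrays with the same replicate letter correlated at 0.15, 0.29 and 0.26 in abdomen, over 0.1 for every pair. Abdomen arrays with different letters correlated at -0.22 to -0.02. The letters were therefore taken to pair the abdomen arrays, an inference from these same values. In testis the deviations correlated at -0.07, 0.15 and 0.05, and the letters were not taken as pairs. Testis arrays with different letters correlated at -0.20 to 0.16, the highest of these above the lowest same-letter value in abdomen. The main fit had no block in either tissue, so abdomen calls, SEs and intervals ignore the pairing unless the block is named. Alternatives were 2 scalings, 2 other pseudocounts, no filter, no trend, the replicate block and leaving out each array. The number of arrays limits the precision, and 3 against 3 arrays cannot give an exact permutation p below 0.1.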

Additional observations from a re-analysis of the deposited data

Results flagged for a closer look

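Gdh, for glutamate dehydrogenase, went opposite ways in the 2 tissues. In testis all 3 sterile values (2356 to 2430) lay below all 3 fertile ones (3067 to 3168), a log2 fold change of -0.37. In abdomen all 3 sterile values lay above all 3 fertile ones, a log2 fold change of 0.79. Gdh was picked by a search for opposite shifts without overlap, run only over the measured genes and the pathway genes named by the size of their change. It entered that search through its abdomen call, so its separation in abdomen was largely given beforehand. Of all probe sets tested, 64.3% in testis and 14.1% in abdomen did not overlap between the lines. The abdomen call of Gdh was lost under 8 of 13 alternatives. The tissues were on different array designs, and the difference between them was not tested.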

How the results depend on the processing

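The log2 difference of Eaat2 in testis was -5.88 with 16 added, -9.86 with 1 and -3.95 with 64, and changed little otherwise (-5.91 to -5.86 without single arrays). Over all their alternatives the testis values ran from 0.06 to 0.17 for gb, -0.19 to -0.06 for Gs1 and -0.19 to -0.11 for Gs2. Leaving out single arrays gave -0.79 to -0.19 for Eaat2, -1.12 to -0.53 for gb, -0.76 to -0.36 for Gs1 and -0.09 to 0.10 for Gs2 in abdomen, where Gs2 changed sign in 2 of 11 alternatives. Abdomen probe sets called numbered 38, against 15 without the variance trend 65 with the replicate block and 20 to 31 without single arrays. The abdomen count of pathway genes, 1 at first, was 0 after median centring and without the variance trend, and 0 to 1 without single arrays. Without sterile replicate A the 1 called was another gene, and lower. In testis the calls over all probe sets (5396 to 7524) and over the pathway (21 to 28) stayed within 1.5 times under every alternative run, the replicate block included (6117 and 27). The 7524 came from the run without the filter. That run tested 18769 probe sets and 72 pathway genes in place of 9927 and 49, so the share called was lower. The cause of these shifts was not tested.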
